A study of Mus musculus with 4 samples.

Results

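The MYC and MAX network is the family of basic helix-loop-helix leucine zipper transcription factors that meet at the E-box, the DNA word CACGTG. The 10 genes described here, Myc, Mycn, Max, Mxd1, Mxd3, Mxd4, Mxi1, Mnt, Mlx and Mga, were taken by symbol from a given list whose rule uses no measured value, although the list was drawn up with earlier results of these data known. All 10 were found among the 41388 genes of the count tables, and all 10 passed the filter on low counts. Their transcripts were counted by RNA-seq of Mnk3, an established mouse line with features of ILC3, the group 3 innate lymphoid cells known for IL-22 and IL-17 at barrier tissues. Untreated cells (control) were compared with cells given IL-1b and IL-23, each at 10 ng/ml, for about 16 h (stimulated), with 2 libraries in each group. All libraries came from this 1 cell line, and no genetic change is named in the labels. Library 1 of each group has rep1 in its title and library 2 has no number there. No label ties the libraries of a group to separate cultures, so the p-values below reflect spread between libraries that may be technical only.

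MAX is the shared partner of the network. MYC and MYCN bind E-boxes with MAX and recruit activators of transcription, and in lymphocytes MYC is known for driving growth, ribosome production and nutrient uptake after activation. The MXD proteins (MXD1, MXD3, MXD4 and MXI1), MNT and MGA compete for MAX. MXD proteins and MNT recruit the SIN3 corepressor with its histone deacetylases, and MGA belongs to a Polycomb complex called PRC1.6. MLX, a MAX-like protein, pairs with MondoA (the Mlxip gene) and ChREBP (Mlxipl), which respond to glucose metabolites, and also with MXD1, MXD4 and MNT.

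The E-boxes of the network's own genes are shown first, because the word through which the family acts stands before several of its own genes. RefSeq promoter windows (build GRCm38.p6) were available for 9 of the 10 genes, without Myc. The canonical E-box CACGTG, which reads the same on both strands, was searched in the 250 bases before each start. It was found in the windows of Mxd4, Mnt and Mlx, with 1 copy each, and not in those of Mycn, Max, Mxd1, Mxd3, Mxi1 or Mga. The word is held by 6.86% of all 27025 genes with a RefSeq window, and by 9.70% of the 9938 of them that were tested. The E-box is in capitals, the stretches run 5′ to 3′ on the gene's strand, and each ends before the first transcribed base listed for the gene.
Mxd4 (chr5:34187897-34187956, minus strand): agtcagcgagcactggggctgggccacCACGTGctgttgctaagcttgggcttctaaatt
Mnt (chr11:74830774-74830833, plus strand): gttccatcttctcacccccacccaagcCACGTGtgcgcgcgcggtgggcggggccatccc
Mlx (chr11:101087223-101087276, plus strand): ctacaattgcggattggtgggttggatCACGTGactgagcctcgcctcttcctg
The first base of the E-box lies 219 bases before the RefSeq start of Mxd4, 123 before that of Mnt and 40 before that of Mlx. A match of letters describes the window and is not a measured binding site.

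Summed gene counts were between 23047723 and 29078765 per library. All 17 ILC3 marker genes had counts in every library. Of the markers of other cells, Lyz2 and Elane (myeloid), Cd8b1 (T cell), and Hbb-bs and Hbb-bt (erythroid) were at 0 in all 4 libraries. Summed T cell markers, with the receptor constant gene Trbc1 the highest, were at 185 to 225 CPM (the count scaled to library size) in the controls and 50.5 to 57.6 CPM in stimulated libraries. Summed stromal markers were at 7.63 to 8.61 CPM and 32.8 to 85.5 CPM. Within that sum Lum rose, from 0.166 and 0.0342 CPM to 84.1 and 30.6 CPM, and Col3a1 fell, from 6.74 and 8.44 CPM to 0.554 and 1.75 CPM (edgeR adjusted p = 0.00608 and 0.0084). B cell markers summed to 3.25 to 4.17 CPM and 1.74 to 2.10 CPM, myeloid markers to 4.99 to 6.77 CPM and 5.98 to 12.1 CPM, and epithelial and erythroid markers to 1.13 to 1.43 CPM and 0.475 to 0.613 CPM. Within the myeloid sum Adgre1 rose (edgeR adjusted p = 0.0161). It was at 0.0664 and 0 CPM in controls 1 and 2 and at 1.74 and 8.19 CPM in stimulated 1 and 2. The part of these marker genes in the results below was not tested.

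Stimulation left the network with more Myc and far less Mxd4 transcript. Of the 10 genes, Myc and Mlx rose, Mxd4 and Mnt fell, and 6 did not pass (edgeR quasi-likelihood test, Benjamini-Hochberg adjusted p under 0.05 over 13838 genes). The 2 higher and 2 lower genes stand beside 17.5% higher and 18.3% lower of all genes tested, and the 4 called in either direction beside 35.8%. The share of members called was therefore close to the background. The groups did not overlap for 9 of the 10 genes (4 higher and 5 lower), against 70.7% of all tested genes (34.4% higher and 36.3% lower). Their median log2 fold change was -0.11, and that of all genes tested was -0.02. The changes spanned -1.77 to 1.58 on the log2 scale. In bulk RNA, fewer cells carrying a transcript and less transcript per cell cannot be told apart.

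**Figure D1:**
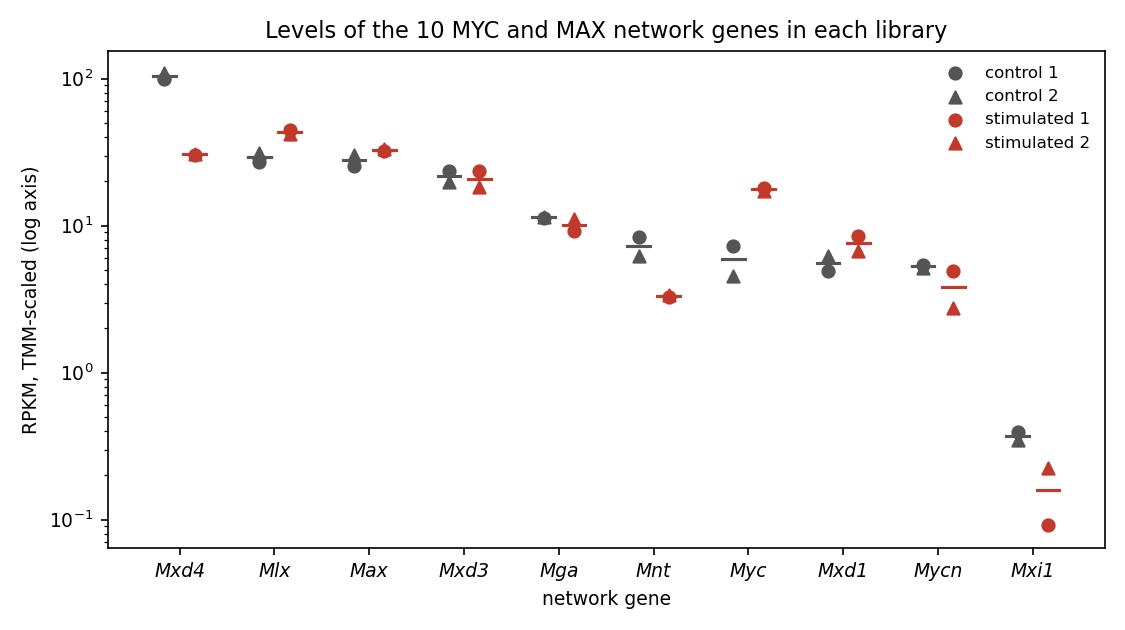
Level of each of the 10 network genes (RPKM on a log axis) in controls 1 and 2 (grey) and stimulated libraries 1 and 2 (red), with circles for library 1, triangles for library 2 and a bar at each group mean. Mxd4 is far above the other genes in the controls (104 RPKM) and level with Max after stimulation (30.6 and 32.9 RPKM).

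Of the activating members, Myc rose and Mycn did not pass. Myc occupies chromosome 15, 61985341 to 61990374, plus strand, in the coordinates of the count tables (build not given in the sources used here). Its level was 7.23 and 4.57 RPKM in controls 1 and 2 and 18.1 and 17.2 RPKM in stimulated 1 and 2, where RPKM is reads per kilobase of listed gene length, scaled to library size. Both stimulated libraries were high and nearly equal, and the controls were low and differed from each other. From 5.90 ± 1.88 to 17.7 ± 0.648 RPKM (SD, n = 2), Myc rose 2.99-fold, a log2 change of 1.58 ± 0.23 (SE; edgeR adjusted p = 0.00311). This change was above that of 96.3% of tested genes. In level, Myc went from the 44.4th to the 69.4th percentile of tested genes.

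Mycn, the paralogue known from neural and early lymphoid cells, was at 5.43 and 5.19 RPKM in the controls and at 4.88 and 2.75 RPKM in the stimulated libraries. Both stimulated values were below both controls, but stimulated 1 was close to them and stimulated 2 was not. Its log2 change was -0.47 ± 0.28 (edgeR adjusted p = 0.230), and -0.95 with an adjusted p of 0.0278 without stimulated 1. The level of Myc was 1.33 and 0.880 times that of Mycn in the controls and 3.71 and 6.25 times in stimulated 1 and 2. Mycl, the third gene of the type, had 3, 1, 1 and 0 counts in controls 1 and 2 and stimulated 1 and 2, too few for a test.

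Max, the common partner, was among the more abundant members in both groups. Its level was 25.5 and 30.1 RPKM in the controls and 32.4 and 33.4 RPKM in the stimulated libraries. The groups did not overlap, yet the log2 change of 0.24 ± 0.15 did not pass (edgeR adjusted p = 0.238). Max stood at 3.52 and 6.59 times the level of Myc in the controls and at 1.79 and 1.94 times after stimulation, so it remained the more abundant of the pair in all 4 libraries.

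Among the MXD genes, which encode the repressive partners of MAX, the dominant transcript fell and the others did not pass. Mxd4 (chromosome 5, 34173887 to 34187720, minus strand), a family member linked to cell cycle exit and differentiation, was at 100.1 and 109 RPKM in the controls. It was at 30.3 and 30.8 RPKM in stimulated 1 and 2, far below both controls and with almost no spread. Mxd4 fell 3.42-fold, from 104 ± 6.14 to 30.6 ± 0.313 RPKM, a log2 change of -1.77 ± 0.14 (edgeR adjusted p = 0.000425). Over 6.06% of its exon bases it overlaps the antisense gene Gm42846, which is not among the listed genes. In the controls it ranked at the 96.8th percentile of level among tested genes, and after stimulation at the 81.0th.

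Mxd1, the founding MXD gene and known from differentiating blood cells, was at 4.91 and 6.25 RPKM in the controls and 8.48 and 6.71 RPKM in the stimulated libraries. The groups were adjacent rather than far apart, and the log2 change was 0.45 ± 0.19 (edgeR adjusted p = 0.113). It had an edgeR adjusted p of 0.0455 with no low-count filter, a fit in which that of Myc was 2.31e-17. Mxd4 exceeded Mxd1 by 20.4 and 17.4 times in the controls and by 3.58 and 4.58 times in stimulated 1 and 2.

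Mxd3, which is expressed in S phase of proliferating cells, had 23.6 and 19.8 RPKM in the controls and 23.5 and 18.2 RPKM in the stimulated libraries. In both groups library 1 was the higher, and the groups overlapped. Its log2 change was -0.06 ± 0.18 (edgeR adjusted p = 0.835), with a reversed sign without control 1 (0.07) and without stimulated 2 (0.14). Exons of Mxd3 overlap those of Prelid1 on the opposite strand over 105 bases (4.43%). Whether the counting used strand is not stated in the labels or files.

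Mxi1, also called Mxd2, was scarce, with 67 and 57 counts in the controls and only 13 and 29 counts after stimulation. Both stimulated libraries were low, and they differed by more than the controls did. Its level was 0.371 ± 0.0347 RPKM in the controls and 0.159 ± 0.0950 RPKM after stimulation, with a log2 change of -1.23 ± 0.45 (edgeR adjusted p = 0.0712). It passed without stimulated 2 (-1.98, adjusted p = 0.0148) and with no low-count filter (0.0108).

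Mnt, a widely expressed repressor that opposes MYC in growing cells, fell with Mxd4. Mnt (chromosome 11, 74830920 to 74845725, plus strand) was at 8.35 and 6.22 RPKM in the controls and at 3.27 and 3.38 RPKM in the stimulated libraries. Both stimulated libraries were below both controls. Its 2.19-fold fall had a log2 change of -1.13 ± 0.19 (edgeR adjusted p = 0.00454). Mga, the largest protein of the family and a scaffold of PRC1.6, was at 11.4 and 11.5 RPKM in the controls and 9.18 and 11.1 RPKM in the stimulated libraries. Stimulated 2 was close to the controls, and the log2 change was -0.17 ± 0.15 (edgeR adjusted p = 0.422).

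Mlx was the most abundant network transcript after stimulation. Mlx (chromosome 11, 101087277 to 101092207, plus strand) was at 27.0 and 31.2 RPKM in the controls and 44.7 and 42.0 RPKM in the stimulated libraries, with no overlap. It rose 1.49-fold, a log2 change of 0.57 ± 0.14 (edgeR adjusted p = 0.0208). The call ended without control 1 (0.47, adjusted p = 0.103) and without stimulated 1 (0.53, 0.0953). Over 385 bases, 19.3% of its exons, Mlx overlaps Psmc3ip on the opposite strand, and without strand the reads of that stretch cannot be told apart. Psmc3ip itself was at 46.2 and 55.2 CPM in the controls and 46.9 and 52.7 CPM after stimulation, and the groups overlapped (-0.03 ± 0.16, edgeR adjusted p = 0.912). The part of the shared stretch in the result for Mlx was not tested.

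The partners of MLX did not pass. Mlxip, which encodes MondoA, had 4.39 and 2.90 RPKM in the controls and 2.94 and 2.75 RPKM in the stimulated libraries, and the groups overlapped. Its log2 change was -0.35 ± 0.22 (edgeR adjusted p = 0.248), and -0.62 with an adjusted p of 0.0443 without control 2. Mlxipl, the ChREBP gene, was scarce, with 13, 8, 13 and 4 counts in controls 1 and 2 and stimulated 1 and 2 (-0.01 ± 0.65, edgeR adjusted p = 0.992), and its sign changed with DESeq2 size factors (0.0094).

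**Figure D2:**
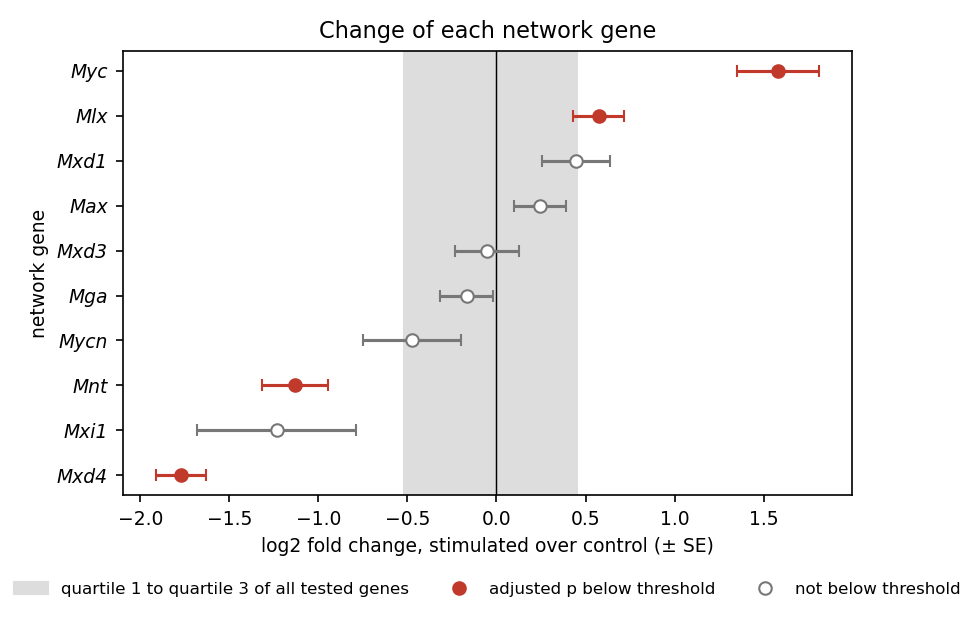
Log2 fold change (± SE) of each network gene, stimulated over control. Filled red points passed the adjusted p threshold (Myc and Mlx to the right, Mnt and Mxd4 to the left), and the grey band runs from the first to the third quartile of all tested genes (-0.52 to 0.45).

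The make-up of the network changed more than its total. The 10 genes summed to 214 and 224 RPKM in the controls and 175 and 166 RPKM in the stimulated libraries. Mxd4 alone gave 46.8% and 48.6% of that sum in the controls and 17.3% and 18.6% in stimulated 1 and 2. Myc gave 3.38% and 2.04% in the controls and 10.4% in each stimulated library. Mlx went from 12.6% and 13.9% to 25.5% and 25.3%, and Max from 11.9% and 13.4% to 18.5% and 20.1%. In all 4 shares the stimulated libraries lay apart from the controls. As parts of the same sum, shares rise when Mxd4 falls, even at an unchanged level. The share of Max rose 1.52-fold, while its level rose 1.18-fold and did not pass (edgeR adjusted p = 0.238). The share of Mlx rose 1.91-fold and its level 1.49-fold. With 2 libraries against 2, an exact two-sided permutation test cannot go below 0.333, so these shares and the ratios that follow are described with no test.

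The balance of transcripts for MYC-type activators against MXD and MNT repressors moved toward the activators. Myc and Mycn together stood at 0.0922 and 0.0690 of the summed level of Mxd1, Mxd3, Mxd4, Mxi1 and Mnt in controls 1 and 2, and at 0.350 and 0.337 in stimulated 1 and 2. The ratio of group means was 4.26, and it ranged from 3.73 to 4.98 when 1 library was left out. Without Mxd4 the same quotient was 0.340 and 0.299 in the controls and 0.651 and 0.699 after stimulation, a ratio of 2.11. The summed MXD and MNT level other than Mxd4 was 35.0 ± 3.28 and 32.0 ± 4.82 RPKM. Repressor transcripts still outnumbered those of the MYC type in stimulated cells, by 2.86 and 2.97 times. These are transcript levels, and no protein was measured.

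**Figure D3:**
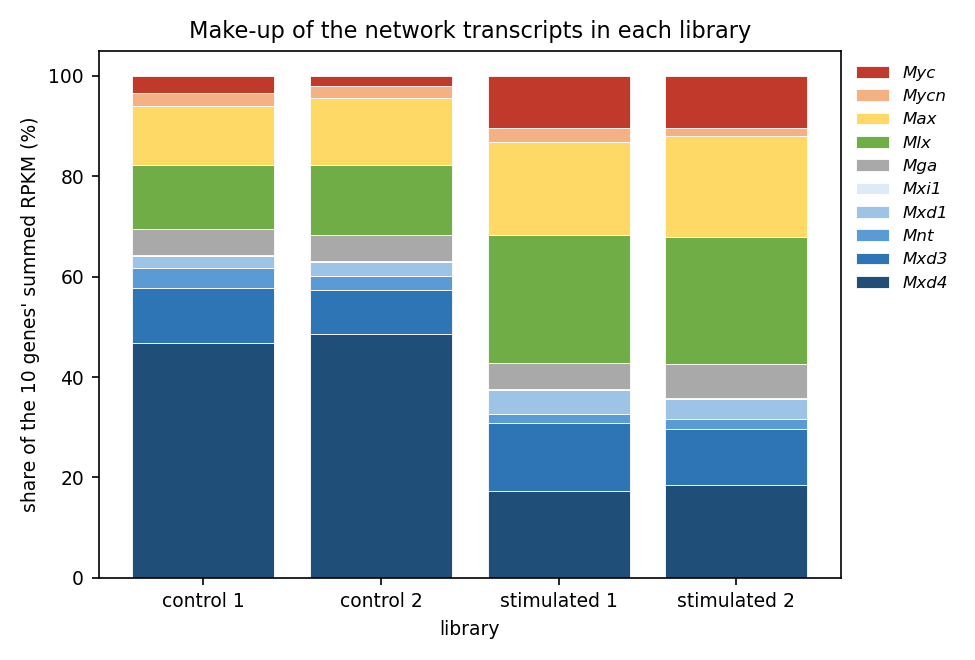
Share (%) of each network gene in the summed RPKM of the 10 genes, 1 bar per library. The dark blue block of Mxd4 shrinks from 46.8% and 48.6% in the controls to 17.3% and 18.6% in the stimulated libraries, while Myc (red), Mlx (green) and Max (yellow) widen. As parts of the same sum, shares widen when Mxd4 falls, and the change in the level of Max did not pass.

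Genes that MYC and MAX are known to activate were mostly higher in stimulated cells. Of 67 listed targets 66 were tested, 53 rose (80.3%), 4 fell (6.06%) and 9 did not pass, beside 17.5% higher and 18.3% lower of all genes tested. The median log2 change was 1.35, beside -0.02 for all genes tested. The list was chosen with earlier results of these data known, so this contrast is not an independent test of MYC activity. Of the targets 44 rose by at least 1 on the log2 scale. The count of higher targets was 49 to 59 over 13 other ways of processing. Srm, the spermidine synthase, rose from 17.7 ± 0.351 to 111 ± 3.92 CPM (2.65 ± 0.14, edgeR adjusted p = 0.00017). Nop16, a nucleolar protein, rose by 2.17 ± 0.15 and Rrp9, part of the machinery that processes ribosomal RNA, by 1.98 ± 0.14 (edgeR adjusted p = 0.000271 and 0.000272).

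The 4 targets that fell were Odc1, Ung, Mcm4 and Mcm7. Odc1, the rate-limiting enzyme of polyamine synthesis and a classic MYC target, was at 888 and 812 CPM in the controls and 481 and 371 CPM in the stimulated libraries. Its log2 change was -0.997 ± 0.18 (edgeR adjusted p = 0.00633), so Odc1 and Srm, which encode successive enzymes of the route, changed in opposite directions. Ung, which removes uracil from DNA, changed by -1.01 ± 0.16 (edgeR adjusted p = 0.00367). Of the replication helicase genes, Mcm4 changed by -0.54 ± 0.16 and Mcm7 by -0.55 ± 0.14 (edgeR adjusted p = 0.0369 and 0.0222), and Mcm5 had -0.38 ± 0.15 (0.0874). Without control 1 or without stimulated 2 neither Mcm gene passed (0.0688 and 0.134 for Mcm7, 0.115 and 0.213 for Mcm4) and 2 targets fell, and Mcm7 also missed without stimulated 1 (0.0633). Mcm5 passed with upper quartile (0.0472) and total-count scaling (0.0352). The glycolytic gene Pkm had 0.39 ± 0.17 and did not pass (0.122).

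The canonical E-box was present in the windows of 12 of 57 targets with a promoter entry, 21.1%. Of these 12, 11 rose and 1, Cdk4, did not pass, with a median log2 change of 1.28. Of 44 tested targets without the word in the window, 34 rose, 3 fell and 7 did not pass, with a median of 1.37. The stretches of 3 targets show the word in different settings: Hspd1 (a mitochondrial chaperone, 1.99 ± 0.15) and Nop2 (a nucleolar RNA methyltransferase, 1.597 ± 0.138), which rose, and Cdk4 (a cell cycle kinase, 0.39 ± 0.13, edgeR adjusted p = 0.0619 and 0.0184 in DESeq2), whose window holds 4 copies.
Hspd1 (chr1:55088291-55088350, minus strand): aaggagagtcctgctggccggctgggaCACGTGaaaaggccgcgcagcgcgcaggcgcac
Nop2 (chr6:125131796-125131855, plus strand): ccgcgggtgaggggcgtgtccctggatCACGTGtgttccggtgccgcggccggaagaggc
Cdk4 (chr10:127063390-127063449, plus strand): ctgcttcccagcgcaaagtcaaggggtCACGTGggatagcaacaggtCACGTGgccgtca
The E-box variant CACGCG, searched also as CGCGTG for the other strand, was in 21.1% of the target windows, beside 16.3% of those of tested genes. Among the 9 network windows 1 held it.

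Of 14 listed genes that MYC is known to repress 13 were tested, 2 rose, 5 fell and 6 did not pass, with a median log2 change of -0.55. The share that rose, 15.4%, was near the 17.5% of all genes, and 38.5% fell, beside 18.3%. The cell cycle inhibitor genes did not move together. Cdkn1a did not pass (0.31 ± 0.52, edgeR adjusted p = 0.676), and its groups overlapped. Cdkn1b, which encodes p27, was at 332 and 390.0 CPM in the controls and 160 and 179 CPM in stimulated cells (-1.09 ± 0.16, edgeR adjusted p = 0.00266). Cdkn2b, which encodes p15, was at 10.6 and 15.5 CPM in the controls and 68.3 and 67.5 CPM after stimulation (2.38 ± 0.21, edgeR adjusted p = 0.000575). Cdkn1c and Cdkn2c fell, by 1.34 ± 0.31 and 0.55 ± 0.17 on the log2 scale (edgeR adjusted p = 0.0161 and 0.0466). Cdkn1c did not pass without stimulated 1 (0.0668), and Cdkn2c did not without control 2 (0.210), stimulated 1 (0.193) or stimulated 2 (0.0734), with limma-voom (0.0532) or with no robust estimation (0.0555). Ccng2, a cyclin of resting cells, changed by -1.51 ± 0.14 (edgeR adjusted p = 0.000715).

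The stress genes Gadd45a and Gadd45b went in opposite directions, at -2.49 ± 0.34 and 3.98 ± 0.17 (edgeR adjusted p = 0.00366 and 0.000134). Gadd45b was at 17.2 and 17.8 CPM in the controls and 252 and 301 CPM in the stimulated libraries. Btg1, an antiproliferative gene, had -0.19 ± 0.17 (0.440). Hexim1, an inhibitor of the elongation kinase P-TEFb, had 0.04 ± 0.24 (0.914), and its sign turned with upper quartile (-0.016) and total-count scaling (-0.058).

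**Figure D4:**
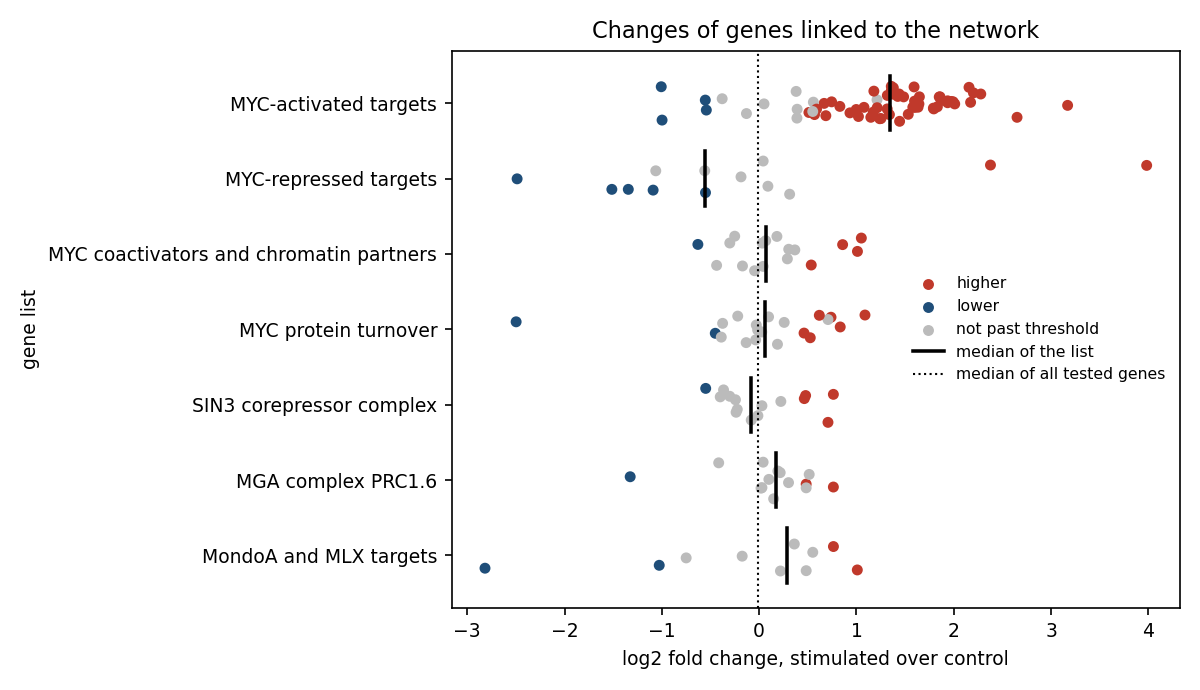
Log2 fold changes of tested genes in 7 lists linked to the network (1 point per gene, spread vertically for legibility; red higher, blue lower, grey not past the threshold), with a black bar at each list's median and a dotted line at that of all tested genes. The MYC-activated targets have a median of 1.35, and the medians of the other lists lie between -0.55 and 0.29. All lists were chosen with earlier results of these data known.

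Of 17 coactivator genes, whose products act with MYC on chromatin, 4 rose, 1 fell and 12 did not pass, with a median log2 change of 0.07. The shares, 23.5% higher and 5.88% lower, stand beside 17.5% and 18.3% of all genes tested, and the count called was no higher than that background of 35.8%. The 4 that rose included both RUVBL helicase genes, whose products sit in the TIP60 and INO80 remodelling complexes. Ruvbl2 was at 110 and 117 CPM in the controls and 241 and 231 CPM in stimulated cells (1.05 ± 0.13, edgeR adjusted p = 0.00184), and Ruvbl1 changed by 1.01 ± 0.16 (0.00403). Kat2a, the histone acetyltransferase GCN5, rose by 0.86 ± 0.14 (edgeR adjusted p = 0.00388), and Actl6a, an actin-like subunit, by 0.54 ± 0.13 (0.0196). Ep400, the ATPase of the TIP60 complex, had -0.63 ± 0.13 (edgeR adjusted p = 0.0108), and missed the threshold without stimulated 1 (0.0569) or stimulated 2 (0.0536). Actl6a missed it without control 1 (0.0776), control 2 (0.0556) or stimulated 1 (0.0989). Hcfc1 had 0.18 ± 0.14 (0.344) and Ccnt1 -0.05 ± 0.19 (0.873), whose sign turned without control 2 (0.16) or stimulated 1 (0.12).

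Of 20 genes listed for turnover of the MYC protein, 6 rose, 2 fell and 12 did not pass, with a median of 0.06. These counts stand beside 17.5% higher and 18.3% lower of all genes, and the share called was close to their 35.8%. The list also holds Mycbp and Mycbp2, named for binding MYC. Of these, Mycbp was among the 6 that rose (0.62 ± 0.18, edgeR adjusted p = 0.0337). Set, an inhibitor of the phosphatase PP2A, rose by 0.83 ± 0.19 (edgeR adjusted p = 0.0155). Usp36, a nucleolar deubiquitinase, rose by 0.74 ± 0.16 (0.0124; 0.0571 without stimulated 1). Fbxo32, an F-box protein also known as atrogin-1, was at 32.7 and 24.9 CPM in the controls and 4.59 and 5.60 CPM in stimulated cells (-2.50 ± 0.22, edgeR adjusted p = 0.000577). Ppp2r5a, a PP2A subunit that targets MYC, had -0.45 ± 0.14 (edgeR adjusted p = 0.0439). Its call ended without any 1 of the 4 libraries (0.0740 to 0.179) and with DESeq2 size factors (0.0540). Fbxw7, the main ubiquitin ligase receptor of MYC, had -0.04 ± 0.23 (0.923), Usp7 had 0.26 ± 0.14 (0.195) and Huwe1 had 0.03 ± 0.15 (0.908). Huwe1 turned sign with upper quartile (-0.025) and total-count scaling (-0.064), and Fbxw7 without control 2 (0.26) or stimulated 1 (0.18). With total-count scaling 3 genes of this list rose, and without stimulated 1 the number was 2.

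Of 15 genes of the SIN3 complex, the corepressor used by MXD proteins and MNT, 4 rose, 1 fell and 10 did not pass, with a median of -0.08. The share called was near the 35.8% of all genes, with 26.7% higher and 6.67% lower beside 17.5% and 18.3%. Hdac2, a histone deacetylase, rose by 0.76 ± 0.16 (edgeR adjusted p = 0.0102). Sap30 (0.71 ± 0.17, edgeR adjusted p = 0.0177), Ing1 (0.48 ± 0.14, 0.0378) and Rbbp7 (0.46 ± 0.15, 0.0462) were higher, and Ncor1, a nuclear receptor corepressor, was lower (-0.55 ± 0.15, 0.0265). Sap30 missed the threshold without control 1 (0.0627) or stimulated 2 (0.0760). Ing1 missed it without control 1 (0.143), control 2 (0.0782) or stimulated 1 (0.213) and with total-count scaling (0.0613). Ncor1 missed it without control 2 (0.0860), stimulated 1 (0.157) or stimulated 2 (0.0511). Rbbp7 missed it without any 1 of the libraries (0.0600 to 0.234), with scaling to the upper quartile (0.0567) or total count (0.0703) and with no robust estimation (0.0518). The number of higher genes in this list was 1 without control 1, and 2 without any other single library or with total-count scaling. Suds3 had -0.22 ± 0.16 (0.311) and Rbbp4 -0.08 ± 0.14 (0.692), with a sign turned without stimulated 1 (0.011).

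Of 14 genes of the MGA complex PRC1.6, 3 of which are shared with the lists above, 2 rose, 1 fell and 11 did not pass, with a median of 0.17. The share called was below the 35.8% of all genes, with 14.3% higher and 7.14% lower beside 17.5% and 18.3%. Tfdp2, a dimer partner of E2F factors, was at 120 and 140 CPM in the controls and 48.3 and 55.3 CPM in stimulated cells (-1.33 ± 0.15, edgeR adjusted p = 0.00127). L3mbtl2, a reader of chromatin, had 0.48 ± 0.14 (edgeR adjusted p = 0.0356), which missed the threshold without control 1 (0.0991), control 2 (0.105) or stimulated 1 (0.203) and with total-count scaling (0.0563). Hdac2 was the other higher member. Tfdp1 had 0.30 ± 0.14 (0.135). Cbx1, a heterochromatin protein, had 0.48 ± 0.17 (0.0677) and passed in DESeq2 (0.0331), with no low-count filter (0.0194) and without control 2 (0.0332).

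Of 10 targets of MondoA, ChREBP and MLX, all tested, 2 rose, 2 fell and 6 did not pass, with a median of 0.29. The shares, 20.0% in each direction, were close to the 17.5% and 18.3% of all genes. Arrdc4, a glucose-responsive arrestin, was at 76.5 and 75.1 CPM in the controls and 38.5 and 35.9 CPM in stimulated cells (-1.03 ± 0.14, edgeR adjusted p = 0.00206). Its window holds 1 canonical E-box, 193 bases before the start, shown because Arrdc4 fell while most MYC-activated targets with that word rose.
Arrdc4 (chr7:68749399-68749458, minus strand): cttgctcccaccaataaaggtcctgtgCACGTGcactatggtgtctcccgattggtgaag
Txnip, a well-known target of MondoA, had 0.22 ± 0.19 (0.405), and turned sign without control 1 (-0.0069). The fatty acid synthesis genes Fasn and Acaca rose by 1.01 ± 0.21 and 0.76 ± 0.15 (edgeR adjusted p = 0.0107 and 0.00827). Pklr, the liver pyruvate kinase, was scarce with 23 and 22 counts in the controls and 4 and 1 counts after stimulation (-2.82 ± 0.62, edgeR adjusted p = 0.0133). Without stimulated 2 it did not pass (0.0587). Hk2, a hexokinase, had 0.55 ± 0.31 (0.224) and passed with no low-count filter (0.00847) and without stimulated 2 (0.0357).

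Of 11 listed neighbours of Myc on chromosome 15, 6 were tested, 2 rose, 1 fell and 3 did not pass, with a median of -0.11, beside 17.5% higher and 18.3% lower of all genes. Pvt1, the noncoding gene next to Myc, was at 8.20 and 9.46 CPM in the controls and 8.95 and 9.54 CPM in stimulated cells (0.07 ± 0.21, edgeR adjusted p = 0.828). Its sign turned with total-count scaling (-0.024) and without control 1 (-0.036). Fam84b rose from 78.5 ± 8.54 to 227 ± 2.03 CPM (1.53 ± 0.15, edgeR adjusted p = 0.000715), and Sqle, a cholesterol synthesis enzyme, by 0.59 ± 0.14 (0.0162; 0.0545 without control 2 and 0.0880 without stimulated 1). Asap1 fell by 1.22 ± 0.18 on the log2 scale (edgeR adjusted p = 0.00332), and Nsmce2 had -0.28 ± 0.14 (0.164).

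The genes most like Myc in pattern were sought among 9509 tested genes of at least 5 CPM with an established symbol. Likeness was the Euclidean distance between centred log2(CPM + 1) profiles over the 4 libraries. The nearest were Myl4 (a myosin light chain, distance 0.114), Stab1 (a scavenger receptor, 0.123), Chchd1 (a mitochondrial ribosome protein, 0.150), Irak3 (an inhibitor of IL-1 receptor signalling, 0.209) and Psmb9 (an immunoproteasome subunit, 0.211). All 5 shared the higher value in control 1 than in control 2 and rose by 1.43 to 1.67 on the log2 scale. Both traits follow from choosing the genes by their distance to Myc. The likeness rests on 4 values per gene.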

How the data were processed

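Per the labels' protocols, sequencing used total RNA depleted of ribosomal RNA. The submitters' processing notes name STAR, Subread and featureCounts, without roles or versions. Each deposited table gives, per the file headers, the count, CPM and RPKM of 41388 genes by Ensembl identifier. The deposited counts are whole and unnormalised. The deposited CPM is each count scaled by its library's sum, and the deposited RPKM is that CPM per kilobase, both checked on the values. Build, annotation and strand use: not given in the sources used here.

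Identifiers were matched to GENCODE M21, and 40340 matched. Counts were tested with edgeR 4.0.16 (R 4.3.3, limma 3.58.1): filterByExpr, TMM scaling, robust quasi-likelihood fit, treatment as the only term, adjustment over 13838 genes, threshold 0.05. CPM and RPKM in the text are recomputed with TMM scaling. The SE is the absolute log2 change over the square root of F, an approximation. The common biological coefficient of variation was 18.4%. The fit was tested on simulated data. The members, the 16 lists (from textbook knowledge) and the tests were chosen with earlier results of these data known.

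Genes were named by a rule: all network genes, of each list the 3 called members with the smallest adjusted p per direction and the 2 most abundant not called, and the 5 most like Myc. Fbxw7, Actl6a, Rbbp7, Mcm4, Cdkn1c, Cdkn2c, Hspd1, Nop2 and Cdk4 were added after their values were seen, and some genes of the rule are not reported here. Alternatives were other scalings and filters, DESeq2 1.42.0, limma-voom, no robust estimation, a replicate block and each library left out.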

Additional observations from a re-analysis of the deposited data

How the results depend on the processing

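Of 49 named genes past the threshold, 33 kept direction and call under all 13 alternatives, and none reversed. Myc ranged from 1.29 to 1.95, Mxd4 from -1.86 to -1.71 and Mnt from -1.33 to -0.91 on the log2 scale, and all 3 stayed past the threshold throughout. Over all genes the calls numbered 2417 higher and 2533 lower. With 1 library left out they were 1593 to 2001 higher and 1665 to 2035 lower, both lowest without stimulated 1. With 1 library left out, network members numbered 1 to 2 higher and 2 to 3 lower. The higher count was 1 without control 1 and without stimulated 1, and the lower count was 3 without stimulated 1 and without stimulated 2. Total-count scaling shifted the median of all genes to -0.11. With no low-count filter the edgeR adjusted p of Myc went from 0.00311 to 2.31e-17, although its log2 change stayed near 1.58. That of Max went from 0.238 to 0.359. The passes of Mxd1, Mxi1, Cbx1 and Hk2 in that fit are to be read beside these values.

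Only library 1 of each group carries a number in its title, so libraries share a kind of title and no stated pairing. Deviations of same-titled libraries correlated at 0.580 over 13838 genes. A fit with the replicate block called 3986 of 13838 genes higher and 4000 lower, beside 2417 and 2533 without the block. Calls thus grew over all genes, and this fit had 4 network members higher and 4 lower. The members it added were Max (adjusted p = 0.0432), Mxd1 (0.000347), Mycn (0.00151) and Mxi1 (0.00132). That fit leaves 1 residual degree of freedom. It gave Myc an edgeR adjusted p of 1.1e-40, beside 0.00311 without the block, at log2 changes of 1.61 and 1.58. The 4 members it added are therefore not counted as changed here.

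The values that changed sign belonged to genes not past the threshold. With DESeq2 size factors Mlxipl had 0.0094. With upper quartile scaling Huwe1 had -0.025 and Hexim1 -0.016. With total-count scaling Huwe1 had -0.064, Hexim1 -0.058 and Pvt1 -0.024. With 1 library left out, the ranges were -0.25 to 0.14 for Mxd3, -0.99 to 0.56 for Mlxipl, -0.23 to 0.16 for Ccnt1, -0.070 to 0.13 for Huwe1, -0.15 to 0.011 for Rbbp4, -0.33 to 0.36 for Hexim1, -0.0069 to 0.48 for Txnip, -0.036 to 0.17 for Pvt1 and -0.28 to 0.26 for Fbxw7. The cause was not tested. Mxi1, Mycl, Mlxipl and Pklr rest on few counts.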
